A study of Mus musculus with 8 samples.

Results

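Prostaglandins are lipid mediators made from arachidonic acid, and the genes that make them, take them up, break them down and sense them were followed here in mouse colon organoids. The set comprises the 9 genes *Pla2g4a*, *Ptgs1*, *Ptgs2*, *Ptges*, *Ptges2*, *Ptges3*, *Hpgd*, *Slco2a1* and *Ptger4*, chosen by gene symbol from a table of 29234 genes. All 9 were in the table and all 9 passed the filter on low counts, which kept 12729 genes.

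Colon organoids, hollow epithelial structures grown in Matrigel from crypts of mice of WT genotype, were exposed to microbe-free fecal supernatant at 4 mg/mL. FS_DSS was made from feces of mice that had drunk dextran sodium sulfate (DSS), which damages the lining of the colon, and FS_CTR from feces of healthy mice. By the study's methods the mice were male C57BL/6N, the organoids had been passaged once, supernatant was added on days 3 and 5 after seeding on day 1 and the organoids were used on day 7, while the labels give a time of 5 days. Total RNA of 4 samples per condition gave 8 stranded libraries, with 18968416 to 27035243 deposited counts per library. Feces were pooled within a condition, the cultures hold epithelium with no added stroma, immune cells or nerves, and no source used here says that the 4 samples came from separate cultures or animals. Every *p* value thus refers to the spread of these samples alone, and that spread may be technical.

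In this pathway phospholipase A2 cuts arachidonic acid out of membrane lipids, the cyclooxygenases turn it into prostaglandin H2, and terminal synthases turn that into prostaglandin E2 and the other prostanoids. Prostaglandin E2 acts through the EP receptors, of which EP4 raises cyclic AMP, and its signal ends when a transporter carries it into the cell and 15-hydroxyprostaglandin dehydrogenase oxidizes it. In the colon the pathway is known for its part in mucosal repair, mucus and ion secretion, pain and tumor growth.

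Libraries FS_CTR 3 and 4 stood apart from the other 6. Their correlation with the others, over the log2 of counts per 1000000 (CPM) of all genes tested, was 0.929 to 0.956, and that of the other 6 among themselves was 0.953 to 0.985. Their scaling factors by the trimmed mean of M values (TMM) were 0.641 and 0.678, against 1.13 to 1.18 in the other 6. The difference of each member is therefore also given without these libraries, and that of several also for replicates 1 and 2 and replicates 3 and 4 taken separately, a division seen in the data that the labels do not explain. The 8 epithelial markers summed to 16020 to 18210 CPM under FS_DSS and 14330 to 18010 CPM under FS_CTR, carried by *Krt8*, *Krt18*, *Krt19*, *Cdh1* and *Vil1*. *Epcam*, on the same list, had 16.8 to 27.2 CPM under FS_DSS and 4.94 to 29.1 CPM under FS_CTR, lowest in FS_CTR 4. *Cdx1*, an intestinal homeobox factor, was called lower (log2 fold change -0.66, adjusted *p* = 0.0988 by edgeR's quasi-likelihood test). Its adjusted *p* was 0.0397 in the edgeR fit that also held the replicate block. Of 5 stem cell markers 4 passed the filter and 3 were called lower, where 6.46% of all genes were (median -1.18, against -0.021 over all genes). These were *Smoc2* at -2.57, *Lgr5* at -1.37 and *Ascl2* at -0.99. *Smoc2* had no overlap between the groups, which 7.58% of all genes showed in this direction. The 5 stem cell markers summed to 22.2 to 70.1 CPM under FS_DSS and 63.5 to 166.9 CPM under FS_CTR, and their part in the members' differences was not tested. All 6 fibroblast markers lay under 1 CPM in all 8 libraries.

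The data showed a higher level of the inducible cyclooxygenase gene under FS_DSS. The constitutive form had a lower mean, but from 18 to 51 counts per library with overlapping groups, and its call depended on the libraries used. *Ptgs2* had 483 ± 201 TMM-scaled CPM under FS_DSS and 164 ± 24.8 CPM under FS_CTR (SD, n = 4 each), a 2.94-fold difference. Over all 8 libraries its adjusted *p* was 0.0784 in edgeR, where 0 of 12729 genes passed 0.05. *Ptgs1*, the constitutive cyclooxygenase, was low throughout and averaged 0.915 ± 0.469 CPM under FS_DSS and 1.87 ± 0.681 CPM under FS_CTR (SD, n = 4 each). The other 7 members, from arachidonate release to the receptor, did not pass the thresholds over all 8 libraries, with differences of at most 0.51 in size on the log2 scale. In *Hpgd*, the breakdown enzyme, the direction of the difference depended on which replicate numbers were compared. Within replicates 3 and 4 alone *Ptgs2*, *Ptgs1*, *Hpgd* and *Pla2g4a* passed an adjusted *p* of 0.05 in edgeR, where 33.8% of all genes did.

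The start regions of the members on which the results turn are shown here: *Ptgs2* and *Ptgs1*, the members past the thresholds, and *Hpgd*, whose direction was not stable. Each is a 300-base promoter from RefSeq (table build GRCm38.p6), 250 bases before and 50 from the annotated start, and each matched GRCm39, the build of the files, at 1 place. They lie at chr1:149975532-149975831 (*Ptgs2*, plus strand), chr2:36120188-36120487 (*Ptgs1*, plus strand) and chr8:56747337-56747636 (*Hpgd*, plus strand). Capitals mark matches to the motifs described after the sequences.
Ptgs2: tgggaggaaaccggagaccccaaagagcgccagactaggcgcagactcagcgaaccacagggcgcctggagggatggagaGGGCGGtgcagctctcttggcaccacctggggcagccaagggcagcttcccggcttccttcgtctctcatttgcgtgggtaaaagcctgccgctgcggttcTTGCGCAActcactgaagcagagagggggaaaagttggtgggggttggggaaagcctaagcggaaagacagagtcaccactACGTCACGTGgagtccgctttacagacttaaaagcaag
Ptgs1: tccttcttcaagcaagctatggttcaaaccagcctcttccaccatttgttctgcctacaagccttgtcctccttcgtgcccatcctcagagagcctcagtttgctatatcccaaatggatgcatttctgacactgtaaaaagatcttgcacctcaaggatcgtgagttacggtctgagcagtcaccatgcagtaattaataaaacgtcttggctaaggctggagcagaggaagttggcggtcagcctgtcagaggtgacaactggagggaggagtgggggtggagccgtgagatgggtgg
Hpgd: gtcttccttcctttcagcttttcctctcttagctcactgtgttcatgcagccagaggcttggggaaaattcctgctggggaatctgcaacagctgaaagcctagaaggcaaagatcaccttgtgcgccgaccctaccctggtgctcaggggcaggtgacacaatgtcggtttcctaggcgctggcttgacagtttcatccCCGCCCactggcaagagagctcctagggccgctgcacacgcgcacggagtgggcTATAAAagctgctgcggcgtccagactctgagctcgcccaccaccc

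The motifs searched, on both strands, were the TATA box TATAAA, the cAMP response element core TGACGT, the E-box CACGTG, the C/EBP motif TTGCNNAA, the AP-1 motif TGANTCA and the GC box GGGCGG. Positions are counted from the annotated start as position 1, with negative positions before it. The *Ptgs2* window held a GC box from -170 to -165, a C/EBP motif from -69 to -62, and a cAMP response element core, as its reverse ACGTCA, from 13 to 18, which shares 2 bases with an E-box from 17 to 22. The annotated RefSeq start of *Ptgs2* lies 294 bases downstream of that of its canonical transcript in the annotation of GRCm39, so the letters are placed relative to one of several annotated starts. The *Hpgd* window held a GC box from -50 to -45, as its reverse CCGCCC, and the letters of the TATA box from 5 to 10. The annotated RefSeq start of *Hpgd* lies 44 bases downstream of that of its canonical transcript, so the TATAAA match lies after both starts. In the *Ptgs1* window none of the 6 motifs was found, which says only that these letters are not in this window. Of 32851 mouse promoters of the same length 7.51% held the cAMP response element core, 7.15% the E-box, 10.8% the C/EBP motif, 35.7% the GC box, 13.6% the TATA box and 7.81% the AP-1 motif. These matches describe the sequence and say nothing of which factors bound it in the organoids.

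**Figure D1:**
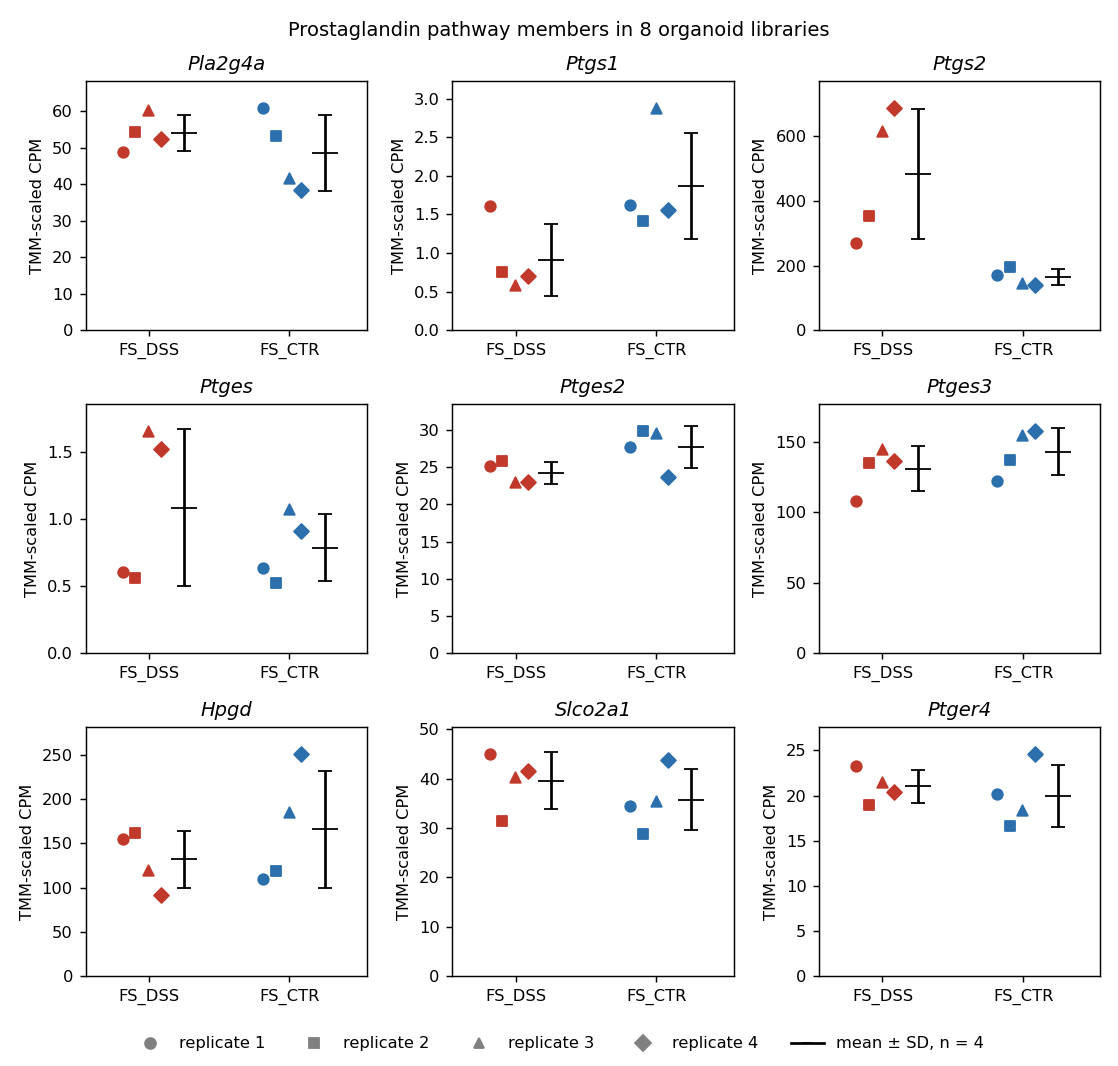
TMM-scaled CPM (vertical axes, each from 0) of the 9 members in the 4 FS_DSS libraries (red, left) and the 4 FS_CTR libraries (blue, right), with the mean and SD of each group in black and a marker shape for each replicate number. *Ptgs2* is the one member whose groups do not overlap, with 272 to 689 CPM under FS_DSS and 142 to 196 CPM under FS_CTR, and in *Hpgd* replicates 3 and 4 are the low FS_DSS libraries and the high FS_CTR libraries.

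The study's own thresholds, an unadjusted *p* under 0.05 and a log2 fold change of at least 0.58 in size, were applied to edgeR's quasi-likelihood test over all genes. Of the 9 members 1 was higher under FS_DSS (*Ptgs2*) and 1 was lower (*Ptgs1*), where 2.56% of all genes tested were higher and 6.46% lower. The median log2 fold change was 0.077 over the members and -0.021 over all genes. At an adjusted *p* under 0.05 no member passed and 0 of 12729 genes did (0.0%), although 3053 genes (24.0%) had an unadjusted *p* under 0.05. By DESeq2 1446 genes (11.4%) passed the adjusted threshold, 1 member among them, by limma-voom 0 genes did, and a block of replicate number in edgeR gave 247 genes (1.94%), with no member among them.

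*Pla2g4a*, on chromosome 1 (149705369 to 149837053, minus strand, 18 exons), encodes the cytosolic phospholipase A2 that releases arachidonic acid from membranes. It had 48.9, 54.3, 60.5 and 52.4 CPM in FS_DSS libraries 1 to 4, against 61.0, 53.4, 41.9 and 38.4 CPM in FS_CTR libraries 1 to 4. The groups overlapped, and the spread was wider under FS_CTR, where libraries 3 and 4 were low. The log2 fold change was 0.15 (standard error 0.15, adjusted *p* = 0.562 by edgeR's quasi-likelihood test), and it was -0.081 without FS_CTR 3 and 4. Within replicates 3 and 4 it was 0.51 (standard error 0.10), and within replicates 1 and 2 it was -0.15 (standard error 0.12).

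*Ptgs2*, on chromosome 1 (149975194 to 149983978, plus strand, 10 exons), encodes cyclooxygenase-2, the form that growth factors, cytokines and injury induce. It had 272, 355, 616 and 689 CPM in FS_DSS libraries 1 to 4, against 170, 196, 147 and 142 CPM in FS_CTR libraries 1 to 4. Every FS_DSS library was above every FS_CTR library, a separation in this direction that 7.41% of all genes tested showed. Within FS_DSS the highest library was 2.54 times the lowest, with replicates 3 and 4 above replicates 1 and 2, while within FS_CTR the ratio was 1.38. The log2 fold change was 1.56 (standard error 0.29, unadjusted *p* = 0.000418), past the study's thresholds and short of the adjusted one (adjusted *p* = 0.0784 by edgeR's quasi-likelihood test).

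The difference in *Ptgs2* held its direction and stayed past the study's thresholds in all 20 alternatives, with a log2 fold change of 0.77 to 2.19. It was 0.77 (standard error 0.16) within replicates 1 and 2, where 1.65% of 12908 genes tested were past the thresholds in this direction, and 2.19 (standard error 0.12) within replicates 3 and 4, where 10.6% of 12732 genes were. Whether the sizes of these effects differ was not tested. With same-numbered libraries set against each other, the difference in log2 CPM was 0.67, 0.85, 2.06 and 2.28 for numbers 1 to 4, so that the pairs numbered 3 and 4 were the wide ones. With the replicate number as a block the log2 fold change was 1.47 (adjusted *p* = 0.0607 in edgeR). The adjusted *p* depended on the fit: it was 1.43e-05 by DESeq2, 0.0308 in edgeR with a term for replicates 1-2 or 3-4 (6.89% of genes passed) and 0.0356 without FS_CTR 1 (9.24% passed), and with 1 library left out at a time it ran up to 0.219. Without FS_CTR 3 and 4 together the log2 fold change was 1.40 (adjusted *p* = 0.151 in edgeR).

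Fibroblasts and leukocytes are also known to make *Ptgs2* transcript. The 6 fibroblast markers summed to 0.722 to 1.48 CPM under FS_DSS and 0.985 to 1.56 CPM under FS_CTR. The 6 leukocyte markers in the table summed to 7.16 to 17.2 CPM under FS_DSS and 7.32 to 15.4 CPM under FS_CTR, mostly *Csf1r* and *Cd68*. Of these markers *Cd3e* and *Cpa3* were at or near 0 and *Itgam* was called lower, as 6.46% of all genes were. In these bulk libraries a larger number of cells of a type and more transcript per cell cannot be told apart. The annotation holds an antisense transcript, *Ptgs2os*, over *Ptgs2* that was not analysed here, and the strand setting of the counting is not given in the sources used here.

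*Ptgs1*, on chromosome 2 (36120438 to 36142287, plus strand, 11 exons), encodes cyclooxygenase-1, the constitutive form. It had 1.61, 0.755, 0.585 and 0.710 CPM in FS_DSS libraries 1 to 4, against 1.62, 1.41, 2.88 and 1.56 CPM in FS_CTR libraries 1 to 4, from 18 to 51 counts per library. FS_DSS libraries 2, 3 and 4 were below all FS_CTR libraries, while FS_DSS 1 lay among them, and FS_CTR 3 was the high one. The log2 fold change was -1.01 (standard error 0.39, unadjusted *p* = 0.0309, adjusted *p* = 0.168 by edgeR's quasi-likelihood test).

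The call on *Ptgs1* depended on the libraries used. It held without FS_DSS 1 (-1.42, unadjusted *p* = 0.0035 in edgeR), FS_CTR 1 (-1.07), FS_CTR 2 (-1.12) or FS_CTR 4 (-1.07). It was lost without FS_DSS 2 (-0.93), FS_DSS 3 (-0.85), FS_DSS 4 (-0.90) or FS_CTR 3 (-0.74), where the unadjusted *p* of edgeR ran from 0.0749 to 0.0951, and without FS_CTR 3 and 4 together (-0.73). It was also lost when libraries were scaled by their totals alone (-0.62, with the median of all genes then at 0.31). Within replicates 1 and 2 the log2 fold change was -0.36 (standard error 0.42), where 5.54% of genes were called lower, and within replicates 3 and 4 it was -1.74 (standard error 0.44), where 12.8% were. Tuft cells, a rare chemosensory cell of the epithelium, are known to express *Ptgs1*. Of 7 tuft markers 4 passed the filter, 3 of these had a negative value and 1 was called lower, where 6.46% of all genes were. It was *Trpm5*, the cation channel of these cells (-1.10, standard error 0.31). Their summed level was 9.32 to 11.98 CPM under FS_DSS and 11.1 to 17.0 CPM under FS_CTR, with *Il25* and *Gfi1b* at or near 0. The most abundant was *Avil*, with 6.54 to 9.97 CPM under FS_DSS and 5.94 to 7.98 CPM under FS_CTR. It had the 1 positive log2 fold change of the list, 0.20 (adjusted *p* = 0.493 in edgeR). The part of tuft cells in the *Ptgs1* difference was not tested.

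Nearly all cyclooxygenase counts came from *Ptgs2* under both conditions. It made up 99.4%, 99.8%, 99.9% and 99.9% of the counts of both genes in FS_DSS libraries 1 to 4, against 99.1%, 99.3%, 98.1% and 98.9% in FS_CTR libraries 1 to 4. Seen from the other side, *Ptgs1* gave 5.89, 2.12, 0.948 and 1.03 counts per 1000 cyclooxygenase counts in FS_DSS libraries 1 to 4. It gave 9.41, 7.14, 19.2 and 10.9 per 1000 in FS_CTR libraries 1 to 4. All FS_DSS values lay below all FS_CTR values. This share also moves with *Ptgs2*, whose groups did not overlap, so its separation is not a second result on *Ptgs1*. The CPM of *Ptgs1* alone overlapped between the groups, with 1.61 in FS_DSS 1 and 1.62 in FS_CTR 1. The 95% exact binomial (Clopper-Pearson) interval of FS_DSS 1, 4.35 to 7.80 per 1000, overlapped those of FS_CTR 1, 2 and 4 (7.01 to 12.3, 5.17 to 9.60 and 6.98 to 16.1 per 1000), and these intervals cover counting error only. The shares are of counts, which favor the longer *Ptgs2* transcript (4747 bases, against 2867 in *Ptgs1*), and no test was made of them.

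**Figure D2:**
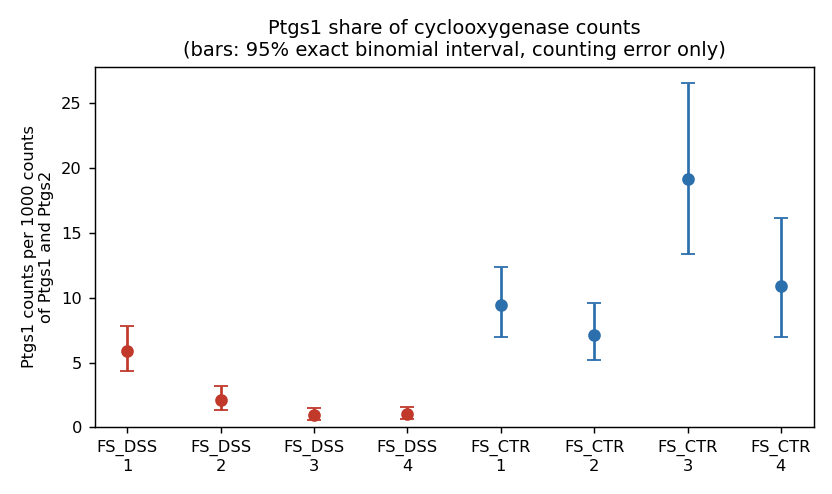
*Ptgs1* counts per 1000 counts of *Ptgs1* and *Ptgs2* together (vertical axis) in each FS_DSS library (red, left) and FS_CTR library (blue, right). Points are the observed shares and bars their 95% exact binomial intervals, and the FS_DSS points, 0.948 to 5.89, lie below the FS_CTR points, 7.14 to 19.2. The share also moves with *Ptgs2*, and the CPM of *Ptgs1* alone overlapped between the groups.

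Among the prostaglandin E synthases, *Ptges*, *Ptges2* and *Ptges3* did not pass the thresholds. *Ptges*, on chromosome 2 (30779483 to 30820196, minus strand, 3 exons), encodes the microsomal synthase that is induced together with *Ptgs2* in inflamed tissue. It had 0.603, 0.558, 1.66 and 1.52 CPM in FS_DSS libraries 1 to 4, against 0.634, 0.526, 1.07 and 0.911 CPM in FS_CTR libraries 1 to 4, from 13 to 51 counts per library. Replicates 3 and 4 were above replicates 1 and 2 under both conditions, and the groups overlapped. The log2 fold change was 0.51 (standard error 0.45, adjusted *p* = 0.501 by edgeR's quasi-likelihood test), -0.00051 within replicates 1 and 2 and 0.70 within replicates 3 and 4 (standard errors 0.36 and 0.36). The span of *Ptges* overlaps *Gm13400*, a processed pseudogene on the same strand that was also counted. Whether reads were exchanged between them was not tested.

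*Ptges2*, on chromosome 2 (32285659 to 32295786, plus strand, 7 exons), encodes a membrane-associated synthase. Its level was 25.1, 25.9, 23.0 and 23.0 CPM in FS_DSS libraries 1 to 4, against 27.6, 29.9, 29.5 and 23.7 CPM in FS_CTR libraries 1 to 4. All FS_DSS libraries were below the FS_CTR mean, but the groups overlapped through FS_CTR 4, and the log2 fold change was -0.19 (standard error 0.11, adjusted *p* = 0.288 in edgeR). *Ptges3*, on chromosome 10 (127894816 to 127913141, plus strand, 8 exons), encodes a cytosolic synthase better known as the Hsp90 co-chaperone p23. It was abundant, with 108, 135, 145 and 136 CPM in FS_DSS libraries 1 to 4, against 122, 137, 155 and 158 CPM in FS_CTR libraries 1 to 4. The groups overlapped, and the log2 fold change was -0.13 (standard error 0.12, adjusted *p* = 0.537 in edgeR).

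*Slco2a1*, on chromosome 9 (102865911 to 102973201, plus strand, 14 exons), encodes the transporter that carries prostaglandins into cells. It had 45.1, 31.4, 40.4 and 41.5 CPM in FS_DSS libraries 1 to 4, against 34.6, 28.9, 35.6 and 43.8 CPM in FS_CTR libraries 1 to 4. The groups overlapped, with library 2 the lowest of each, and the log2 fold change was 0.15 (standard error 0.15, adjusted *p* = 0.556 by edgeR's quasi-likelihood test).

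*Hpgd*, on chromosome 8 (56747543 to 56774082, plus strand, 7 exons), encodes 15-hydroxyprostaglandin dehydrogenase, which inactivates prostaglandin E2 and is known from the differentiated surface cells of the colon. It had 154, 162, 119 and 92.1 CPM in FS_DSS libraries 1 to 4, against 109, 118, 185 and 251 CPM in FS_CTR libraries 1 to 4. The groups overlapped widely, since replicates 3 and 4 were the low libraries under FS_DSS and the high libraries under FS_CTR. Over all libraries the log2 fold change was -0.33 (standard error 0.28, adjusted *p* = 0.491 by edgeR's quasi-likelihood test).

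The difference in *Hpgd* had opposite signs in different replicate numbers. Within replicates 1 and 2 the log2 fold change was 0.47 (standard error 0.10, unadjusted *p* = 0.00391 in edgeR), under the fold threshold. Within replicates 3 and 4 it was -1.03 (standard error 0.18, unadjusted *p* = 0.000694 in edgeR), past the thresholds, where 12.8% of genes were called lower. The difference between these effects was not tested. Same-numbered libraries differed by 0.50, 0.45, -0.63 and -1.45 in log2 CPM for numbers 1 to 4. Without FS_CTR 3 and 4 the log2 fold change was 0.21, and with library totals alone it was 0.12, which lies -0.18 from the median of all genes under that scaling.

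Markers of mature colonocytes are given beside *Hpgd*. All 8 passed the filter, 7 had a negative value and their median log2 fold change was -0.49. Of the 8, 1 was called lower, where 6.46% of all genes were. It was *Slc26a3*, the chloride and bicarbonate exchanger of these cells. *Slc26a3* had 94.7, 84.8, 42.6 and 30.0 CPM in FS_DSS libraries 1 to 4, against 100.2, 112, 120 and 117 CPM in FS_CTR libraries 1 to 4. Here too FS_DSS 3 and 4 were the low libraries under FS_DSS, while the FS_CTR libraries lay closer together than in *Hpgd*. *Car1*, *Car2*, *Car4*, *Aqp8* and *Cdhr5* were also lower in FS_DSS 3 and 4 than in FS_DSS 1 and 2. *Krt20* (731, 754, 754 and 718 CPM in FS_DSS libraries 1 to 4) and *Guca2a* (344, 469, 440 and 342 CPM) did not follow that order within FS_DSS. In FS_CTR libraries 1 to 4 *Krt20* had 525.5, 565.6, 652 and 1033 CPM, *Guca2a* 284, 410, 634 and 853 CPM and *Cdhr5* 543, 638, 901 and 1118 CPM. These, and *Slc26a3* over a narrower range, were higher in FS_CTR 3 and 4 than in FS_CTR 1 and 2, as *Hpgd* was. *Car1*, *Car2*, *Car4* and *Aqp8* did not show that order. The markers summed to 4276 to 6924 CPM under FS_DSS and 5234 to 9012 CPM under FS_CTR, and their part in the *Hpgd* values was not tested.

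**Figure D3:**
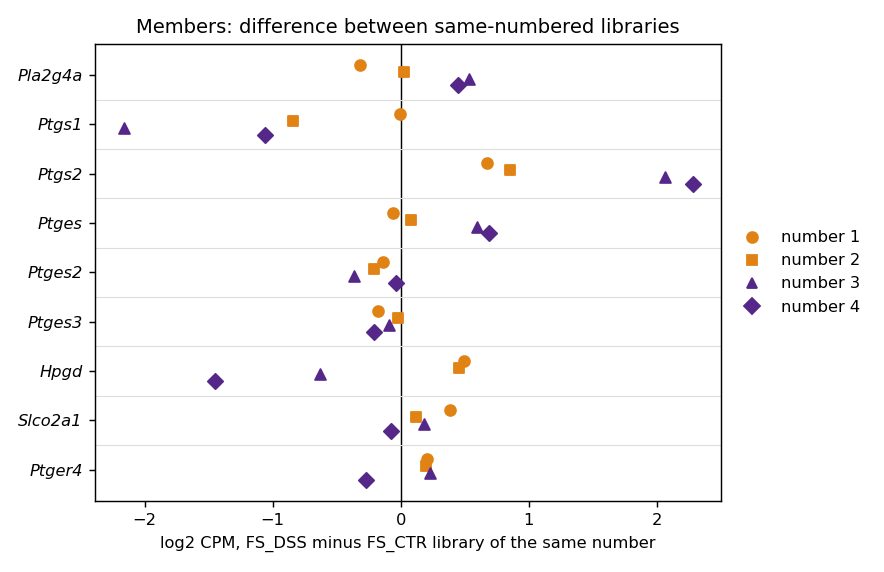
Difference in log2 CPM (horizontal axis, FS_DSS minus FS_CTR) between libraries of the same replicate number for each member, numbers 1 and 2 in orange and 3 and 4 in purple. *Ptgs2* lies right of 0 for all 4 numbers, from 0.67 to 2.28, while *Hpgd* lies right of 0 for numbers 1 and 2 and left of it for numbers 3 and 4.

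*Ptger4*, on chromosome 15 (5236142 to 5273673, minus strand, 3 exons), encodes EP4, the prostaglandin E2 receptor that raises cyclic AMP. It had 23.3, 19.0, 21.5 and 20.4 CPM in FS_DSS libraries 1 to 4, against 20.2, 16.6, 18.4 and 24.7 CPM in FS_CTR libraries 1 to 4. The FS_DSS values lay within the range of the FS_CTR values, and the log2 fold change was 0.077 (standard error 0.14, adjusted *p* = 0.755 by edgeR's quasi-likelihood test). The gene overlaps *Ttc33* on the opposite strand, so reads of both can be exchanged if the counting ignored strand. Without FS_CTR 3 and 4 the log2 fold change was 0.19 for *Ptger4*, 0.32 for *Slco2a1*, 0.90 for *Ptges*, -0.25 for *Ptges2* and 0.016 for *Ptges3*, none of them past the thresholds.

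**Figure D4:**
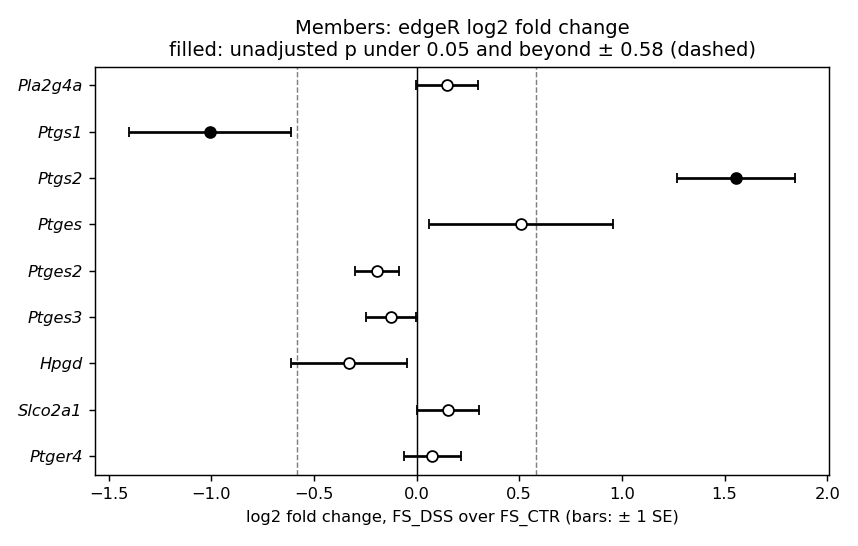
Log2 fold change of each member, FS_DSS over FS_CTR (horizontal axis), with bars of 1 standard error and dashed lines at a size of 0.58. The filled points are *Ptgs2* at 1.56 and *Ptgs1* at -1.01, and the other 7 members lie between -0.33 and 0.51.

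Per kilobase of the canonical transcript, which allows levels to be set side by side between genes, *Ptgs2* was highest under FS_DSS, with 101.7 ± 42.3 CPM per kilobase (SD, n = 4). *Hpgd* followed with 74.9 ± 18.4 and *Ptges3* with 65.3 ± 7.95 CPM per kilobase, and the ranges of neighbors in this order overlapped. Under FS_CTR the order began with *Hpgd* at 94.3 ± 37.5 and *Ptges3* at 71.3 ± 8.28, which overlapped, and *Ptgs2* came after both at 34.6 ± 5.23 CPM per kilobase with no overlap. Under each condition *Pla2g4a* came next (18.9 ± 1.70 under FS_DSS, 17.0 ± 3.65 under FS_CTR), apart from its neighbors. *Ptger4*, *Slco2a1* and *Ptges2* lay between 4.64 and 6.35 CPM per kilobase on average under FS_DSS and between 5.02 and 6.03 under FS_CTR, each overlapping its neighbor. *Ptgs1* (0.319 under FS_DSS, 0.651 under FS_CTR) and *Ptges* (0.293 under FS_DSS, 0.213 under FS_CTR) were last, overlapping under FS_DSS and not under FS_CTR.

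The synthesis and breakdown genes can also be set against each other within a library. Per kilobase, *Ptgs2* stood to *Hpgd* as 0.652, 0.815, 1.91 and 2.77 to 1 in FS_DSS libraries 1 to 4, against 0.577, 0.616, 0.296 and 0.210 to 1 in FS_CTR libraries 1 to 4. The ratio lay above 1 in FS_DSS 3 and 4 alone among the 8 libraries, but where 1 falls depends on the transcript lengths used. In counts, without that division, it was 1.76, 2.20, 5.16 and 7.48 in FS_DSS libraries 1 to 4. In FS_CTR libraries 1 to 4 the count ratio was 1.56, 1.66, 0.798 and 0.565. This is a description of the transcripts and no measurement of prostaglandin E2 was analysed here.

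The wider pathway was followed in 6 further lists of 88 genes, of which 66 passed the filter. Of these 66 genes 2 were higher and 4 lower at the study's thresholds, or 3.03% and 6.06%, shares close to the 2.56% and 6.46% over all genes. The median log2 fold change was 0.037, against -0.021 over all genes, and 0 genes reached an adjusted *p* under 0.05 in edgeR, while 16 had an unadjusted *p* under 0.05. A positive value was found in 35 of the 66 genes and a negative one in 31, against 6050 and 6679 of all 12729 genes.

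Among 16 other genes of arachidonate release and handling past the filter, 6 had a positive and 10 a negative value (median -0.10). Of the 16, 3 (18.8%) were called lower and 0 higher, against 6.46% and 2.56% of all genes. *Pla2g4c*, a calcium-independent cytosolic phospholipase, had 1.01, 0.558, 0.422 and 0.355 CPM in FS_DSS libraries 1 to 4, against 0.919, 1.54, 516 and 298 CPM in FS_CTR libraries 1 to 4. The log2 fold change of -8.43 came from FS_CTR 3 and 4 (-1.07 without them, unadjusted *p* = 0.0565 in edgeR, short of the threshold). *Pla2g5*, a secreted phospholipase, had 0.134, 0.230, 0.357 and 0.0968 CPM in FS_DSS libraries 1 to 4, against 2.19, 0.920, 0.411 and 0.585 CPM in FS_CTR libraries 1 to 4. It was low everywhere without overlap between the groups, which 7.58% of all genes showed in this direction. *Pla2g4f*, another cytosolic phospholipase, was at -0.74 (standard error 0.32), and lost its call without FS_CTR 1, 3 or 4 or FS_DSS 2, 3 or 4, with values from -0.79 to -0.45, as well as with the replicate block (-0.71), with a term for replicates 1-2 or 3-4 (-0.73) and without FS_CTR 3 and 4 together (-0.40). The most abundant gene of the list was *Anxa1*, annexin A1, a protein that restrains phospholipase A2. It had 1743 ± 401 CPM under FS_DSS and 1240 ± 125 CPM under FS_CTR (SD, n = 4 each), a log2 fold change of 0.49 (adjusted *p* = 0.158 in edgeR) under the fold threshold. It passed the thresholds without FS_DSS 1 (0.64), within replicates 3 and 4 (0.66) and with library totals alone (0.85).

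Of 9 other prostanoid synthases and reductases past the filter 8 had a negative value (median -0.25). Of the 9, 1 (11.1%) was called lower, where 6.46% of all genes were. This was *Cbr1*, a carbonyl reductase that turns prostaglandin E2 into prostaglandin F2α. It had 64.5, 76.2, 76.1 and 60.4 CPM in FS_DSS libraries 1 to 4, against 77.7, 104.8, 119 and 114 CPM in FS_CTR libraries 1 to 4. The groups did not overlap, a separation in this direction that 7.58% of all genes showed. Its log2 fold change of -0.58 (standard error 0.15, adjusted *p* = 0.0878 in edgeR) lay at the fold threshold. It fell short of that threshold without FS_DSS 1 or 4 or FS_CTR 2, 3 or 4 (-0.575 to -0.51) and with the block (-0.57). Without FS_CTR 3 and 4 together it was -0.40. *Akr1b8*, an aldo-keto reductase and the most abundant of the list, was at -0.10, with the opposite sign without FS_CTR 3 and 4 together (0.37), without FS_CTR 3, FS_CTR 4 or FS_DSS 1 (0.0064 to 0.075) and with library totals alone (0.35). The prostacyclin synthase *Ptgis*, the thromboxane synthase *Tbxas1* and *Ptgds*, a prostaglandin D synthase, were under the filter, with at most 0.131 CPM in any library.

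Of the other prostanoid receptors and export genes, 7 of 9 were under the filter and under 1 CPM in all 8 libraries, among them *Ptger2*, which encodes the other EP receptor that raises cyclic AMP, with 1 count over the 8 libraries, and *Ptgir*, the prostacyclin receptor, with 0. *Ptger1*, the EP1 receptor, was chosen for mention after its values were seen, with 1.94 to 3.59 CPM under FS_DSS and 2.79 to 5.27 CPM under FS_CTR (-0.60, adjusted *p* = 0.226 in edgeR). *Abcc4*, a pump that exports prostaglandin E2, was called higher, as 2.56% of all genes were. It had 102, 92.5, 94.3 and 106.7 CPM in FS_DSS libraries 1 to 4, against 88.4, 76.7, 47.5 and 46.4 CPM in FS_CTR libraries 1 to 4. The groups did not overlap, a separation in this direction that 7.41% of all genes showed, and FS_CTR 3 and 4 were the low libraries. Its log2 fold change of 0.61 (standard error 0.21, adjusted *p* = 0.134 in edgeR) was 0.26 without FS_CTR 3 and 4, and fell under the fold threshold without FS_CTR 3 (0.49), FS_CTR 4 (0.48) or FS_DSS 4 (0.57).

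In the leukotriene and lipoxygenase branch 8 of 16 genes passed the filter and 0 were called in either direction by edgeR (1 had an unadjusted *p* under 0.05), with 4 positive and 4 negative values. *Mgst2*, a microsomal enzyme able to form leukotriene C4 and the most abundant of them, had 105 ± 19.5 CPM under FS_DSS and 152 ± 41.4 CPM under FS_CTR (SD, n = 4 each; log2 fold change -0.52). Without FS_CTR 3 and 4, where it had 191 and 183 CPM, its log2 fold change was -0.14, and it was 0.024 within replicates 1 and 2. It passed the thresholds without FS_CTR 1 (-0.65), FS_CTR 2 (-0.61) or FS_DSS 1 (-0.64) and within replicates 3 and 4. Among 17 genes of the cyclic AMP and CREB response past the filter, 13 had a positive value (median 0.15). Of the 17, 1 (5.88%) was called higher, where 2.56% of all genes were. It was *Sik1*, a salt-inducible kinase whose gene CREB activates, with 25.9, 27.4, 36.5 and 45.0 CPM in FS_DSS libraries 1 to 4, against 21.3, 20.6, 17.9 and 16.0 CPM in FS_CTR libraries 1 to 4. The groups did not overlap, a separation in this direction that 7.41% of all genes showed. The log2 fold change was 0.83 (standard error 0.19, adjusted *p* = 0.0791 in edgeR). Within replicates 1 and 2 it was 0.35, under the fold threshold, and without FS_CTR 3 and 4 it was 0.69. *Gnas*, the stimulatory G protein subunit to which EP4 couples, was the most abundant of the list and was at 0.19, and at 0.080 without FS_CTR 3 and 4.

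Among 14 regulators of *Ptgs2* and *Hpgd* transcripts past the filter 10 had a positive value and 0 were past the thresholds in edgeR, while 5 had an unadjusted *p* under 0.05, where 24.0% of all genes did. The most abundant was *Foxa1*, a forkhead factor of the gut epithelium, with 154 ± 10.7 CPM under FS_DSS and 120 ± 21.6 CPM under FS_CTR (SD, n = 4 each) and a log2 fold change of 0.36 (adjusted *p* = 0.149 in edgeR), which was 0.16 without FS_CTR 3 and 4.

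**Figure D5:**
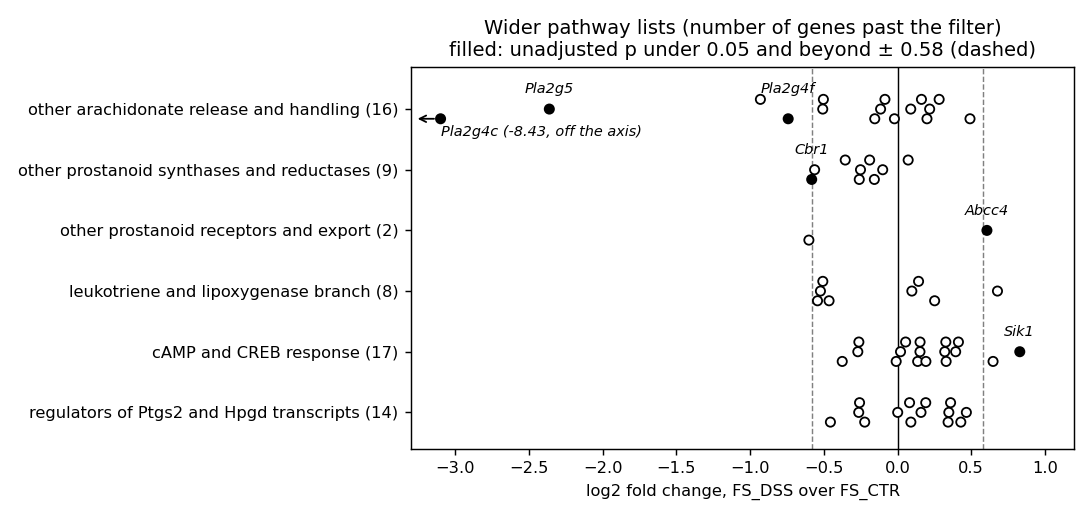
Log2 fold change, FS_DSS over FS_CTR (horizontal axis), of the genes of 6 wider lists that passed the filter, 1 point per gene, with dashed lines at a size of 0.58. Filled and named are the 6 genes past the study's thresholds, *Abcc4* and *Sik1* on the higher side and *Pla2g4c*, *Pla2g5*, *Pla2g4f* and *Cbr1* on the lower side, with *Pla2g4c* at -8.43 drawn at the edge of the axis.

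The genes whose log2 CPM followed that of *Ptgs2* most closely over the 8 libraries were sought among 10065 other genes with a mean of at least 5 CPM. They were *Ctgf*, a secreted matrix protein (Pearson r = 0.990), *Slc3a2*, the heavy chain of amino acid transporters (0.986), *Krt80*, a keratin (0.985), *St3gal2*, a sialyltransferase (0.984), and *Ctsl*, a lysosomal protease (0.983). After the group means were taken out, r ran from 0.932 to 0.972. *Ctgf* had 391, 477, 645 and 814 CPM in FS_DSS libraries 1 to 4, against 317, 325, 287 and 288 CPM in FS_CTR libraries 1 to 4, and like *Ptgs2* it was highest in FS_DSS 3 and 4. For *Hpgd* the closest were *Nr2f6*, a nuclear receptor (0.992), *Rilp* (0.980), *Mgat4c* (0.980), *Tmem243* (0.979) and *Anks4b*, a scaffold of the brush border (0.978). *Nr2f6* had 97.6, 99.6, 88.9 and 83.1 CPM in FS_DSS libraries 1 to 4, against 87.9, 91.7, 108 and 117 CPM in FS_CTR libraries 1 to 4, a far narrower range than that of *Hpgd*, with FS_DSS 4 lowest and FS_CTR 4 highest in both. These values rest on 8 libraries that share scaling, conditions and replicate numbers, and are descriptions.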

How the data were processed

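RNA of 4 FS_DSS and 4 FS_CTR colon organoid samples was sequenced as stranded libraries with paired ends. The authors made estimated counts per gene with Salmon 1.10.1 on the GRCm39 transcriptome and deposited them without normalization. They were whole numbers, and DESeq2 1.36.0, named for the study's own normalization, is not in them. Neither the strand setting nor the transcriptome release is given in the sources used here. Columns of no mapped sample numbered 0.

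The comparison used edgeR 4.0.16 in R 4.3.3 and its quasi-likelihood test, condition as the only term, TMM scaling, filterByExpr (12729 of 29234 genes kept) with *p* adjusted after Benjamini and Hochberg over these genes. Standard errors are approximate, from the log2 fold change and the root of its F statistic. Log2 CPM used a prior count of 2. The comparison was tested on simulated data. Positions came from GENCODE on GRCm39, and promoters from RefSeq.

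The members, the lists and the tests were chosen with earlier results of these data known. Named genes were all 9 members, from each list up to 3 genes per direction with the smallest *p* past the thresholds and the one with the highest mean CPM, and the 5 genes most correlated with *Ptgs2* and with *Hpgd*. Same-numbered libraries deviated together from their group means, with correlations of 0.352, 0.221, 0.154 and 0.226 for numbers 1 to 4. The replicate block and the differences between same-numbered libraries use this pairing, which was taken from the data. The main test does not use it, and no source says what the numbers stand for. FS_CTR 3 correlated more with FS_DSS 4, at 0.188, than with FS_DSS 3, at 0.154. Alternatives were other scalings and filters, DESeq2 1.42.0, limma-voom (limma 3.58.1), the replicate number as a block, a term for replicates 1-2 or 3-4, libraries left out, and replicates 1 and 2 or 3 and 4 alone.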

Additional observations from a re-analysis of the deposited data

Results flagged for a closer look

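*Ptgs1* held both values that stood far from the rest of their group among the 18 combinations of a member and a condition examined, where chance flags about 1 in 20. FS_DSS 1, at 1.61 CPM, lay above the other FS_DSS libraries, and FS_CTR 3, at 2.88 CPM, lay above the other FS_CTR libraries. Both rest on few counts, 48 in FS_DSS 1 and 35 in FS_CTR 3.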

How the results depend on the processing

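*Ptgs2* stayed past the study's thresholds in all 20 alternatives, and *Slco2a1* kept its direction in all 20. At an adjusted *p* under 0.05 over all genes in edgeR, with all libraries and condition alone, the members called higher numbered 0 and those called lower 0. *Ptgs2* passed that threshold by DESeq2, with the term for replicates 1-2 or 3-4 and without FS_CTR replicate 1, and 4 members passed it within replicates 3 and 4. The members called lower numbered 0 with library totals alone, without FS_CTR replicates 3 and 4 together and within replicates 1 and 2, 2 within replicates 3 and 4, and 0 to 1 with 1 library left out. Of the wider pathway 6 genes were called, 15 with library totals alone, 3 by limma-voom, 11 without FS_CTR replicates 3 and 4, 21 within replicates 3 and 4, and 3 to 10 with 1 library left out. Over all genes the calls moved as well, from 326 higher and 822 lower of 12729 to 1256 and 144 with library totals alone. They numbered 328 and 667 by limma-voom, and 376 and 702 of 13126 without FS_CTR replicates 3 and 4. Within replicates 3 and 4 they numbered 1352 (10.6%) and 1628 (12.8%) of 12732. With 1 library left out they ran from 178 to 614 higher and from 586 to 1070 lower.

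Library totals alone moved the median of all genes by 0.33 on the log2 scale, and turned *Ptges2* to 0.12, *Ptges3* to 0.24 and *Hpgd* to 0.12. Relative to that median they lay at -0.18, -0.063 and -0.18. Without FS_CTR replicates 3 and 4 *Pla2g4a* turned to -0.081, *Ptges3* to 0.016 and *Hpgd* to 0.21. Within replicates 1 and 2 *Pla2g4a* turned to -0.15, *Ptges* to -0.00051 and *Hpgd* to 0.47, and within replicates 3 and 4 *Ptger4* turned to -0.026. With 1 library left out *Ptger4* ran from -0.0016 to 0.19. The cause of these turns was not tested.

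The replicate number as a block gave *Ptgs2* 1.47 and *Ptgs1* -1.04, both past the study's thresholds, and changed no other call among the members. Depth limits *Ptgs1*, with 18 to 51 counts per library, and *Ptges*, with 13 to 51.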
